A study of Mus musculus with 20 samples.

Results

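Adrb3, the beta-3 adrenergic receptor, was measured in the liver of 5 inbred mouse strains together with 6 genes typical of fat cells, Adipoq, Lep, Retn, Cfd, Fabp4 and Plin1. The 7 genes, of 34744 gene names on the array, were matched by the gene name that the array files give to each non-control probe, which found 9 probes. Adrb3 was selected on its measured level in NZO against B6, so its levels in B6, NZO and DBA are given as a description with no test, and the 6 adipocyte genes were set beside it to read fat carried over with the tissue separately from a strain difference. The arrays held liver RNA of 20 male mice, 4 of each strain. B6 stands for C57BL/6, NZO for NZO/HiBomDife, DBA for DBA/2J, C3H for C3HeB/FeJ, and 129Ola for 129P2/OlaHsd. The labels name no engineered allele or drug in any group. Every mouse ate a high fat diet (45% fat), so no group was on another diet, and liver was collected at week 6, where the labels do not settle whether this is age or time on the diet. The series calls B6 and 129Ola lean and diabetes-resistant, DBA and C3H lean and diabetes-susceptible, and NZO obese and susceptible.

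The beta-3 receptor binds noradrenaline and, through the stimulatory G protein and adenylyl cyclase, raises cyclic AMP and activates protein kinase A, which in fat cells starts lipolysis and, in brown fat, heat production. In rodents it is best known from white and brown adipocytes, not from hepatocytes. Adipoq (adiponectin), Lep (leptin), Retn (resistin) and Cfd (adipsin, complement factor D) encode proteins secreted by mouse fat cells. Fabp4 carries fatty acids inside adipocytes and is also known from endothelium and macrophages, and Plin1 coats the lipid droplet of adipocytes. Liver samples are bulk tissue, in which fewer cells of a type and less RNA per cell cannot be told apart.

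Adrb3 had 2 probes, both on chromosome 8 of the mouse build mm9 and on the minus strand. Adrb3 probe 1 matches chr8:28336268-28336327 and starts at base 2715 of the transcript, and Adrb3 probe 2 matches chr8:28337864-28337923 and starts at base 1779, in the coding sequence. The probes lie 1596 bases apart in the genome and 936 in the transcript. Over the 20 mice their levels correlated with Pearson r = 0.88 and Spearman rho = 0.94, as a description of probes that share every array. Retn also had 2 probes, probe 1 at chr8:3659757-3659816 and probe 2, in coding sequence, at chr8:3657312-3657371, both on the plus strand. The other genes had 1 probe each, Adipoq at chr16:23157576-23157635 in coding sequence, Lep at chr6:29023234-29023293, Cfd at chr10:79355302-79355361, Fabp4 at chr3:10204452-10204511 and Plin1 at chr7:86866112-86866171. Lep was printed on 10 spots of each array and the others on 1. The sequences of the 3 coding-sequence probes are shown as deposited. Probe 2 of Adrb3 is shown as the check on its brighter probe. The Adipoq and Retn probes were among those measured in DBA 5, the DBA mouse with the highest adipocyte gene levels. The sequences are in lower case throughout because no part of them is singled out.
Adrb3 probe 2: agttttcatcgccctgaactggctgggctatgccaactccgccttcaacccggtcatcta
Adipoq: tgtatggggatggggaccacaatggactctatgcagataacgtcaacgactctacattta
Retn probe 2: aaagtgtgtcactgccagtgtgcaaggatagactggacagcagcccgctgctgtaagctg
GC content was 55% for Adrb3 probe 2 and 35% for Adrb3 probe 1, and the part of a strain's own allele under a probe was not tested.

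Levels are log2 of the processed signal minus the array's 75th percentile, and only the same probe was compared between mice. A probe counts as measured on an array where the scanner software flagged it well above background. That share was 49.2 to 59.1% of probes on the 12 arrays of B6, NZO and DBA and 40.0 to 46.9% on the 8 arrays of C3H and 129Ola, which were extracted with another software version, and the lowest signal well above background lay between -4.45 and -3.75 on the former and between -3.15 and -2.56 on the latter. A level below background is therefore not comparable between these sets of arrays. Differences were taken between strains of the same software version, C3H with 129Ola on the one side and DBA, NZO and B6 on the other. Their standard errors and p-values rest on a spread estimated over all 20 arrays, of both versions. Levels of strains from both sides are set beside each other as a description only. All C3H arrays were scanned on 1 day and all 129Ola arrays on another, so scan day and strain cannot be told apart in that comparison. Nor can slide and strain, since C3H was on 1 slide and 129Ola on 2 others. Nothing in the labels says that mice came from separate litters, so p-values measure the spread between these mice. The 6 hepatocyte markers, Alb among them, were measured on every array, with a mean level between 8.78 and 9.19 in all 20 mice, as the labelled tissue requires.

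Adrb3 probe 1 was measured in every mouse of 4 strains and in none of NZO. In C3H its level was 3.34, 3.42, 3.80 and 3.12 in mice 1, 2, 3 and 5, and in DBA 3.02, 3.47, 3.48 and 3.08 in mice 5, 8, 9 and 15. In B6 it was 1.94, 1.92, 1.50 and 1.28 in mice 9, 10, 11 and 15, and in 129Ola -0.02, 0.30, -0.56 and -0.35 in mice 4, 5, 7 and 9. In NZO it was -5.10, -4.18, -4.57 and -4.51 in mice 3, 7, 9 and 11, and 0 of these 4 arrays was well above background. The order of the strain means was C3H (3.42 ± 0.28, SD, n = 4), DBA (3.26 ± 0.25), B6 (1.66 ± 0.32), 129Ola (-0.16 ± 0.38) and NZO (-4.59 ± 0.38). C3H and DBA, neighbours in that order, overlapped mouse by mouse, and every other pair of neighbours was separated without overlap.

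**Figure D1:**
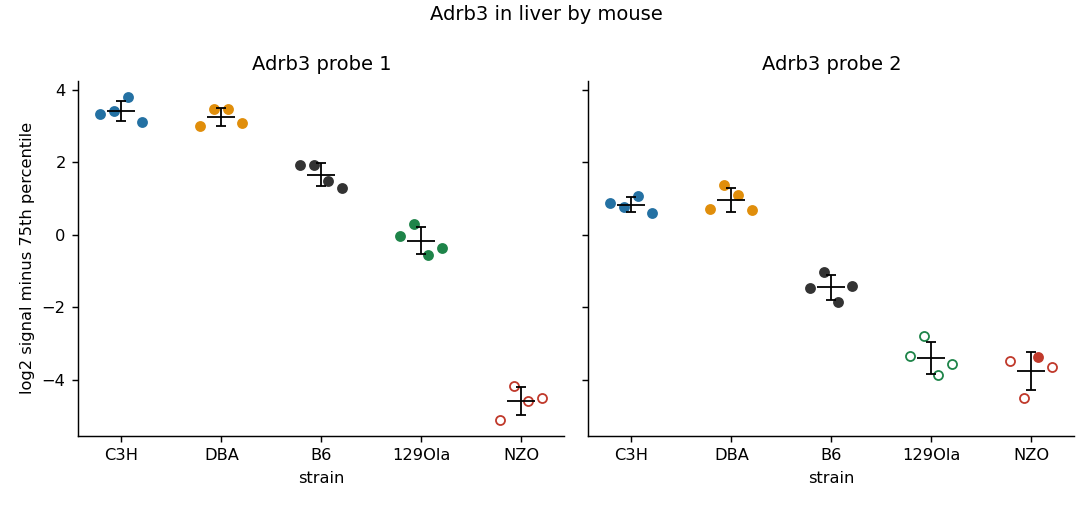
Level of each Adrb3 probe in every mouse, as log2 processed signal minus the array's 75th percentile (vertical axis), by strain (horizontal axis). Filled points were well above background, open points were not, and bars show the mean and SD of 4 mice. Probe 1 falls from 3.42 in C3H and 3.26 in DBA to -4.59 in NZO, and on probe 2 both 129Ola and NZO lie near background.

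On Adrb3 probe 2, DBA and C3H were again the highest strains, with DBA above C3H in the mean, and both 129Ola and NZO were mostly below background. It stood at 0.72, 1.099, 1.39 and 0.69 in DBA mice 5, 8, 9 and 15 and at 0.88, 0.76, 1.08 and 0.60 in C3H mice 1, 2, 3 and 5, which overlap. The B6 mice 9, 10, 11 and 15 lay below both, at -1.46, -1.02, -1.86 and -1.42. The 129Ola mice 4, 5, 7 and 9 were at -3.35, -2.80, -3.86 and -3.57, with 0 of 4 arrays well above background. The NZO mice 3, 7, 9 and 11 were at -3.48, -4.51, -3.36 and -3.66, and mouse 9 alone was measured. For this probe 129Ola and NZO overlapped and neither has a level beyond a bound in most mice.

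Adrb3 was higher in C3H than in 129Ola by both probes. This comparison shares no array with the contrast that picked the gene. Probe 1 differed by a log2 value of 3.58 ± 0.22 (SE, 4 mice per strain), which is 11.96-fold (limma adjusted p = 1.76e-09), higher in 4 of 4 C3H mice than in any 129Ola mouse. Probe 2 differed by 4.23 ± 0.26 (limma adjusted p = 1.53e-09), given as at least 11.7-fold because 129Ola was not well above background. For an "at least" fold each array of the dim strain enters with the array's lowest measured signal, or with the probe's own where that is higher. With the slide as a random block, which allows for a spread between slides and cannot separate slide from strain, the difference was 3.64 (adjusted p = 7.71e-07) for Adrb3 probe 1 and 4.30 (adjusted p = 1.55e-07) for probe 2.

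In the strains from which the gene was picked, the Adrb3 differences were as follows, without a test. NZO was at least 48.6-fold lower than B6 by probe 1 (log2 difference -6.25 ± 0.22) and -2.31 ± 0.26 by probe 2, where 1 of 4 NZO arrays was well above background. DBA was 1.60 ± 0.22 higher than B6 by probe 1, or 3.04-fold, and 2.41 ± 0.26 by probe 2. NZO was at least 148-fold lower than DBA by probe 1 and -4.73 ± 0.26 by probe 2. None of these pairs of strains overlapped on either probe, which only describes strains from which the gene was picked. The share of all probes without overlap was not computed for these or the other Adrb3 comparisons. Scan day held more than 1 of these strains on 2 days, and within them Adrb3 probe 1 in NZO minus B6 was -6.33 (3 and 2 mice) and -5.90 (1 and 2 mice), and in DBA minus B6 1.89 (1 and 2 mice) and 1.29 (1 and 2 mice). With scan day as a block these differences were -6.22 and 1.59. The size of the NZO difference depends on the background treatment, which for normexp includes an added offset of 50. The part of that offset in the normexp values was not tested. With normexp background correction NZO minus B6 was -2.62 for probe 1 and -0.45 for probe 2, and NZO minus DBA -4.03 and -1.93, while the authors' series value table gave -5.04 and -6.66 for probe 2.

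Of the secreted adipocyte proteins, Adipoq was well above background on 1 of 20 arrays, that of DBA 5, and Lep on none by most of its spots. Adipoq stood at -2.98 in DBA 5 and between -5.97 and -4.73 in the other DBA mice, between -5.74 and -4.75 in B6, between -5.22 and -4.31 in NZO, between -3.74 and -3.10 in C3H and between -5.11 and -3.87 in 129Ola. Lep ranged from -5.63 to -4.14 over all mice, and the arrays with the most flagged Lep spots were DBA 5 and NZO 7, with 4 of 10 spots each. Retn probe 1 was measured in 3 of 4 129Ola mice, in 2 of 4 of NZO, DBA and C3H and in 1 of 4 B6 mice, and Retn probe 2 in DBA 5 and 129Ola 7 alone. Retn probe 1 was highest in 129Ola, at -1.99, -1.95, -1.39 and -3.58 in mice 4, 5, 7 and 9, overlapping C3H at -2.57, -2.59, -3.47 and -3.34 in mice 1, 2, 3 and 5. Cfd was not well above background on any 129Ola array, where its mean was -3.66. In B6 its mean was -3.67, with 3 of 4 mice measured. The lowest signal well above background was higher on the 129Ola arrays, so the Cfd flags alone do not set 129Ola apart from B6. Retn probe 1 and Cfd were read on the same 129Ola arrays, against the same limit.

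Cfd, the serine protease adipsin, spread more widely within strains than any other member did in C3H and DBA. Its level was -0.37, -1.37, -1.39 and -2.88 in C3H mice 1, 2, 3 and 5. In DBA it was -0.48 in mouse 5 and -3.91, -3.76 and -3.19 in mice 8, 9 and 15. In B6 it ran from -4.17 to -3.27 (3 of 4 mice measured), in NZO from -4.86 to -3.76 (1 of 4) and in 129Ola from -4.73 to -2.99 (0 of 4). DBA 5 thus lay far above the other DBA mice, which lay within or near the range of B6.

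Of the lipid-handling members, Plin1 was well above background in DBA 5 alone, at -3.75 against -5.51 to -5.14 in the other DBA mice. Fabp4 was the member measured in all 20 mice. It stood at 2.94, 2.67, 2.69 and 3.84 in C3H mice 1, 2, 3 and 5, at 3.00, 2.66, 2.15 and 2.73 in DBA mice 5, 8, 9 and 15, at 2.35, 2.25, 2.38 and 2.23 in B6 mice 9, 10, 11 and 15, at 2.05, 1.94, 2.23 and 2.43 in 129Ola mice 4, 5, 7 and 9 and at 2.25, 1.80, 1.74 and 2.29 in NZO mice 3, 7, 9 and 11. The strains overlapped except C3H with the B6, 129Ola and NZO mice, and the highest Fabp4 and the lowest Cfd of C3H were in the same mouse, C3H 5.

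**Figure D2:**
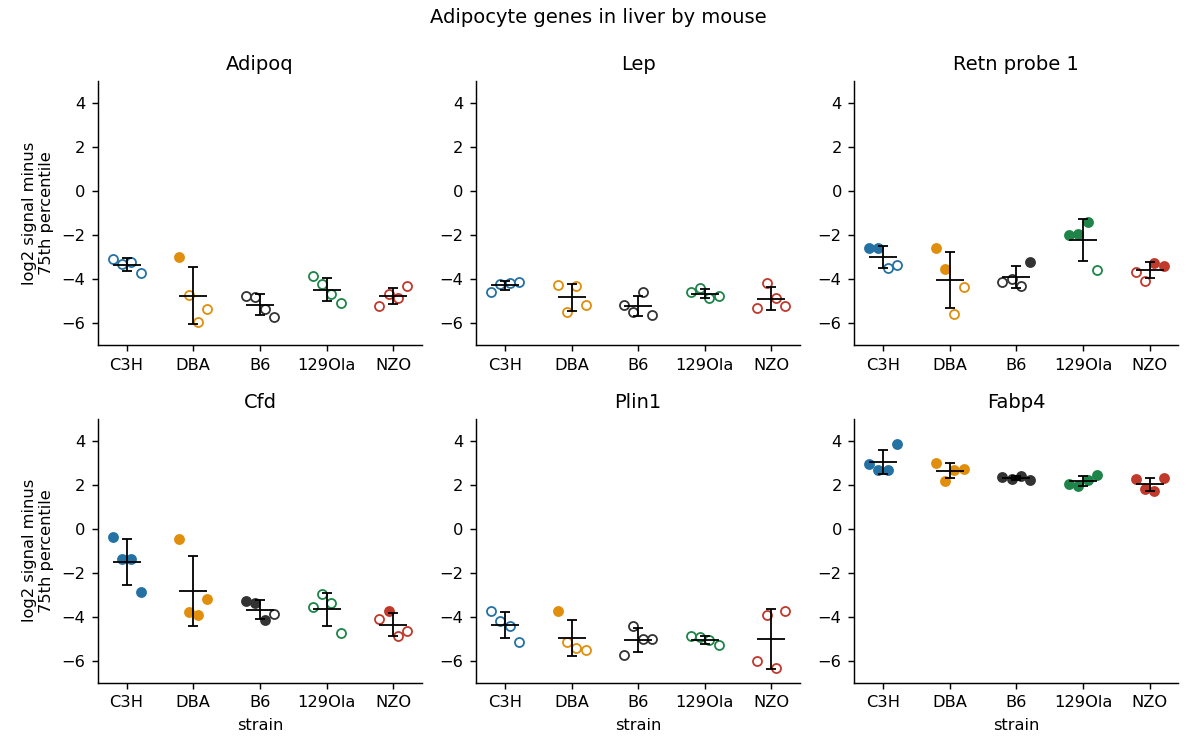
Level of the 6 adipocyte genes in every mouse (Retn by probe 1), as log2 processed signal minus the array's 75th percentile, by strain. Filled points were well above background, open points were not, and bars show mean and SD of 4 mice. In DBA the single high point of Adipoq (-2.98), Cfd (-0.48) and Plin1 (-3.75) is the same mouse, DBA 5, and Lep has no filled point.

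The tests required a probe to be well above background in all 4 mice of some strain. Both Adrb3 probes, Cfd and Fabp4 met this, 4 of the 9 member probes and 3 of the 7 genes, whereas Adipoq, Lep, Plin1 and both Retn probes did not. Cfd met it through DBA and C3H alone, the strains with its highest levels, so the count of tested members that passed is no support for a group effect. Each Cfd test with DBA or C3H is of a probe kept because it was high there. Its differences and p-values are therefore a description and no support either. In C3H against 129Ola, where 35.5% of all 28431 tested probes differed, Cfd was 2.16 ± 0.64 higher in C3H, at least 2.31-fold (adjusted p = 0.0149), and Fabp4 0.88 ± 0.23 higher, or 1.84-fold (adjusted p = 0.00730). Neither gene overlapped between these strains, and the share of all probes without overlap was not computed. For Cfd the nearest mice were C3H 5 at -2.88 and 129Ola 5 at -2.99, both near background. Both calls were lost with the slide as a random block, with adjusted p = 0.129 for Cfd and 0.128 for Fabp4, and that of Cfd also without C3H 1 (1.78, adjusted p = 0.0532). With normexp background correction Cfd differed by 0.37 (adjusted p = 0.234). The endothelium markers, cells that share Fabp4 with fat, were measured in every mouse, 6 of 6. Their mean level was 2.08 to 2.29 in C3H and 2.42 to 2.52 in 129Ola. Of the 6, 0 were higher in C3H and 2 lower, against 14.4% and 21% of all probes. Of 5 markers of macrophages, which also have Fabp4, 1 was higher in C3H and 3 lower. The part of either cell type in the Fabp4 difference was not tested.

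In DBA against B6, where 14.8% of probes differed, neither Cfd (0.84 ± 0.64, adjusted p = 0.479) nor Fabp4 (0.33 ± 0.23, adjusted p = 0.423) passed the threshold. Without DBA 5 the Cfd difference was 0.05 (adjusted p = 0.961), so the DBA mean of Cfd rests on that mouse. In NZO against DBA, where 17% of probes differed, Cfd was lower by 1.52 ± 0.64 (adjusted p = 0.122) and Fabp4 by 0.62 ± 0.23 (adjusted p = 0.0778), neither past the threshold. Without DBA 5 the Cfd difference was -0.73 (adjusted p = 0.336). Without DBA 9 the Fabp4 difference was -0.78 and passed (adjusted p = 0.0330), as it did with normexp (-0.63, adjusted p = 0.0380). In NZO minus B6 the differences were -0.68 ± 0.64 for Cfd and -0.28 ± 0.23 for Fabp4, with overlapping mice.

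DBA 5 had the highest level among the DBA mice in each of the 6 adipocyte genes and not in Adrb3. For Lep the margin was narrow, at -4.29 against -5.50 to -4.33 in the others. By Dixon's test for outliers, given at the end, DBA 5 was flagged for Retn probe 2 alone. It was not flagged for Adipoq, Cfd, Plin1 or the adipocyte mean. Of the 6 adipocyte genes 5 were well above background on its array, against 2 or 3 in DBA 8, 9 and 15. Relative to the mean of those 3 mice it had 8.83-fold Cfd and 1.40-fold Fabp4. Retn probe 2 was -3.41 in DBA 5 and -6.11 to -5.91 in the others, where it was below background, as were Adipoq and Plin1. Adrb3 probe 1 was 3.02 in DBA 5 and 3.08 to 3.48 in the others, and probe 2 was 0.72 against 0.69 to 1.39. The receptor in DBA 5 was thus at the low end of the DBA mice on both probes. The mean of the mesothelium markers, cells that line the liver and the abdominal fat, was also highest in DBA 5 among DBA mice, at -2.35 against -3.45 to -3.06, as was that of the pancreatic acinar markers, at -2.65 against -3.53 to -3.26. By smaller margins DBA 5 was also highest for the hepatocyte (9.19 against 8.86 to 9.02), macrophage (3.31 against 3.05 to 3.20) and endothelium markers (2.17 against 2.06 to 2.16) and the adipokine receptors (3.48 against 3.31 to 3.34). The mean over 13 further adipocyte genes was -2.22 in DBA 5 and -2.49 to -2.41 in the others.

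The mean level of the 6 adipocyte genes per mouse (brightest probe of each) was compared within each set of arrays, since most of these probes were below background. It ranged from -3.54 to -3.31 in B6, from -3.73 to -3.14 in NZO and, leaving DBA 5 at -1.85 aside, from -3.76 to -3.42 in DBA. On the other arrays it ranged from -2.57 to -1.90 in C3H and from -3.51 to -2.76 in 129Ola. B6, NZO and the other DBA mice overlapped in this mean. In these mice 1 to 3 of the 6 genes were well above background. Their overlap is thus largely one of signals at background, which cannot show like amounts of fat. In Adrb3 probe 1 the strain means differed by at least 48.6-fold (NZO below B6) and by 3.04-fold (DBA above B6). C3H and 129Ola did not overlap in the adipocyte mean and differed in the direction of Adrb3.

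**Figure D3:**
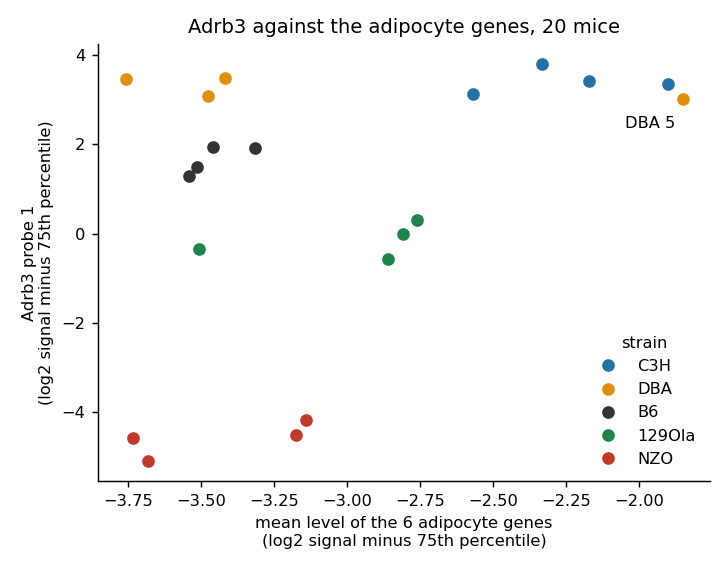
Adrb3 probe 1 (vertical axis) against the mean of the 6 adipocyte genes (horizontal axis) in the 20 mice, both as log2 processed signal minus the array's 75th percentile and coloured by strain. DBA 5 lies far to the right of the other DBA mice at a like Adrb3 level (3.02). NZO lies under B6 and DBA at a like adipocyte mean, which there comes mostly from signals below background. C3H and 129Ola come from arrays with another background and are to be compared with each other.

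With an adipocyte level as a covariate in the fit, the Adrb3 differences moved by less than their standard errors. For C3H minus 129Ola, Adrb3 probe 1 was 3.54 ± 0.30 with Cfd as the covariate (adjusted p = 3.47e-07), 3.72 ± 0.34 with Cfd and Fabp4 (adjusted p = 1.45e-06) and 3.55 ± 0.25 with the mean of Adipoq, Cfd, Plin1 and Retn (adjusted p = 2.67e-08). For NZO minus B6 the 3 covariates gave -6.24, -6.29 and -6.25, and for DBA minus B6 1.59, 1.66 and 1.59, without a test. Apart from Fabp4, these covariates are signals near background in most mice. The slope on a covariate is fitted within strains, and C3H and 129Ola did not overlap in Cfd. The fit therefore cannot separate a strain difference in Adrb3 from a difference in fat between strains.

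Within strains, no rise of Adrb3 with the adipocyte genes from mouse to mouse was detected. Over the deviations of the 20 mice from their strain means, Adrb3 probe 1 and the adipocyte mean had Pearson r = 0.05 (permutation p = 0.853 within strains, two-sided) and Spearman rho = 0.23 (permutation p = 0.369). For Cfd r was 0.06 (permutation p = 0.805, rho = 0.20 with p = 0.436) and for Adipoq 0.22 (permutation p = 0.360, rho = 0.48 with p = 0.0542). For Fabp4 the relation was negative, r = -0.57 (permutation p = 0.00974) and rho = -0.60 (permutation p = 0.00870), with adjusted p = 0.0390 over the 4 relations computed and 0.721 to 0.853 for the others. Without the 2 mice farthest out, r was 0.43 for the adipocyte mean and 0.73 for Adipoq (both without DBA 5 and DBA 8), 0.16 for Cfd and -0.55 for Fabp4 (both without C3H 5, and without DBA 5 or DBA 9). Adipoq was below background in these mice, so its r without DBA 5 compares signals at the limit of the array. Over the 16 mice outside NZO the Fabp4 relation was r = -0.58 with adjusted p = 0.0729.

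A list of 13 further adipocyte genes was read too, and in C3H against 129Ola 5 of the 10 tested were higher in C3H, 1 was lower and 4 did not pass, against 14.4% of all probes higher and 21% lower. Their median difference was 0.63, with -0.08 over all probes. Sncg, gamma-synuclein, was 2.33 ± 0.58 higher (adjusted p = 0.00512), Aqp7, the glycerol channel of fat cells, 2.11 ± 0.56 (adjusted p = 0.00760), Slc2a4, the insulin-responsive glucose transporter GLUT4, 1.20 ± 0.37 (adjusted p = 0.0191), each measured in 1 of 4 129Ola mice. Npr3, the natriuretic peptide clearance receptor, and Mrap, the accessory protein of the ACTH receptor, were the other 2, Mrap by 0.46 ± 0.11 (adjusted p = 0.00463) and Npr3 below background in both strains. Pparg, the nuclear receptor that drives fat cell formation, was the one lower, by 1.01 ± 0.22 (adjusted p = 0.00248). Of the 5, Mrap alone was measured in all mice of both strains, so the other differences are against signals mostly below background. Mrap was bright in every strain, with means from 4.75 in DBA to 5.30 in C3H. Whether that signal comes from fat cells was not tested. The count of 5 fell to 3 without 129Ola 5, to 1 among probes measured on all arrays, to 2 with the slide as a random block, and to 1 with normexp.

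**Figure D4:**
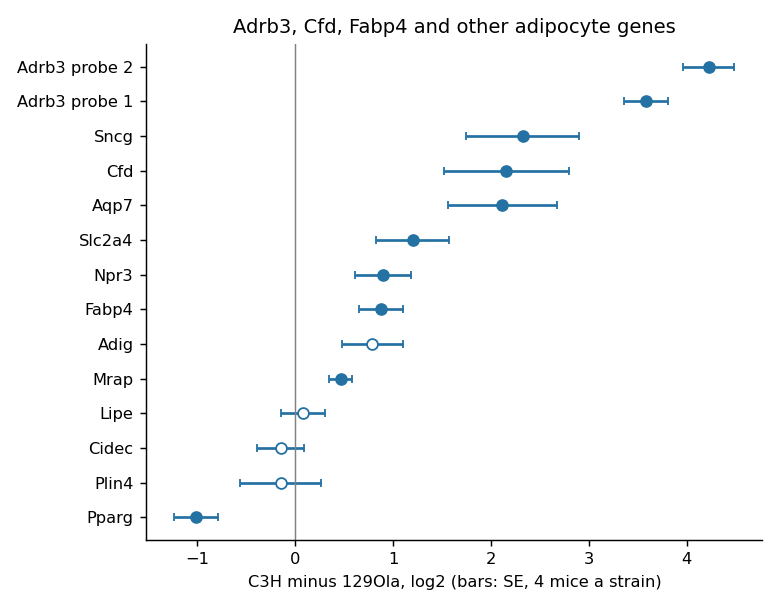
Difference C3H minus 129Ola on the log2 scale (horizontal axis) for the tested member probes and the 10 tested genes of the further adipocyte list, with SE bars from 4 mice per strain. Filled points passed an adjusted p of 0.05, and the Adrb3 probes (3.58 and 4.23) lie to the right of Sncg, Cfd and Aqp7 at 2.11 to 2.33, with Pparg on the other side of 0.

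Between DBA and B6, and between NZO and DBA, 0 of these 10 genes passed the threshold in either direction, against 14.8% and 17% of all probes. A count of 0 in 10 is near those shares. The median differences of the 10 genes were -0.11 and 0.22. Per mouse, the mean of the 13 genes ran from -2.04 to -1.67 in C3H and from -2.52 to -1.90 in the mice of the other strains, and 4 to 11 of the 13 were well above background. Lgals12 and Acvr1c, defining genes of fat cells, were not above background on any array, and Trarg1 on 1 B6 array. Of 4 brown fat genes Ucp1, the uncoupling protein, was well above background on 1 array, that of C3H 2, Cidea and Cox8b on some, and only Cox7a1 was tested, with no call in the 3 comparisons. In C3H 2 all 4 brown fat genes were well above background, with a mean of -0.66 against -2.54 to -2.28 in the other C3H mice, 1 or 2 of whose genes were measured. Adrb3 probe 1 was 3.42 in C3H 2 and 3.12 to 3.80 in the others, and without C3H 2 the Adrb3 difference from 129Ola was 3.58 (adjusted p = 2.14e-08) for probe 1 and 4.25 (adjusted p = 1.75e-08) for probe 2.

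Genes of the receptor's signalling route were read from another list. Of 26 genes of beta-adrenergic signalling, 22 were tested, and in DBA against B6 1 was higher and 1 lower, against 6.88% and 7.95% of all probes. Arrb1, beta-arrestin 1, was 0.64 ± 0.10 higher (adjusted p = 0.000189) and the adenylyl cyclase Adcy4 fell by 1.47 ± 0.13 (adjusted p = 1.49e-07). In NZO against DBA 2 were higher and 2 lower, against 9.15% and 7.83%, the reverse for the same 2 genes (Adcy4 1.68, Arrb1 -0.80), in comparisons that share the DBA mice, with Adra1b, the alpha-1B receptor of hepatocytes, 0.41 higher and the coactivator Ppargc1a -0.90. In C3H against 129Ola 3 were higher and 4 lower of 22, a share near the 14.4% and 21% of all probes. The kinase subunits Prkar2a (0.70 ± 0.13) and Prkar2b (0.95 ± 0.23, with 1 of 4 129Ola mice well above background) were higher, the cyclase Adcy9 (-0.69 ± 0.16) and the beta-1 receptor Adrb1 (-0.88 ± 0.29) lower, the last with neither strain well above background. Adrb1 was measured in every B6, NZO and DBA mouse, at -2.83 ± 0.50, -2.63 ± 0.21 and -2.99 ± 0.12 (SD, n = 4).

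Of 5 receptors for adipokines, all tested, 1 was higher and 1 lower in each comparison, where 14.8% (DBA against B6), 17% (NZO against DBA) and 35.5% (C3H against 129Ola) of all probes were called in either direction. Adipor2, the adiponectin receptor of liver, was lower in DBA than in B6 (-0.67 ± 0.11, adjusted p = 0.000226), higher in NZO than in DBA (1.11 ± 0.11, adjusted p = 6.41e-07) and higher in C3H than in 129Ola (0.54 ± 0.11, adjusted p = 0.00116). Cap1, a cyclase-associated protein reported to bind resistin, was 0.91 higher in DBA than in B6 and -0.93 in NZO against DBA, and Cdh13, T-cadherin, fell by 0.61 in C3H against 129Ola. Another scaling, on probes well above background on all 20 arrays, moves every C3H minus 129Ola difference up by 0.16, less than the differences named here, and changes the split over all probes from 4108 higher and 5979 lower to 5953 and 3330.

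Calls among markers of other cells are set against the same shares of all probes, 35.5% in C3H against 129Ola, 17% in NZO against DBA and 14.8% in DBA against B6. In C3H against 129Ola the calls higher and lower were 1 and 3 of 5 tested for macrophage, 0 and 2 of 6 for endothelium, 1 and 2 of 4 for pancreatic acinar cells, 0 and 1 of 4 for mesothelium, 0 and 2 of 4 for bile duct epithelium, 0 and 0 of 5 for skeletal muscle and 1 and 0 of 6 for hepatocytes. In DBA against B6 they were 0 and 4 of 5 for macrophage, 0 and 2 of 6 for endothelium, 0 and 1 of 4 each for acinar cells and bile duct, and 0 for the rest. In NZO against DBA acinar cells had 1 lower and bile duct 1 higher and 1 lower, and the rest 0. The part of these cells in the Adrb3 differences was not tested.

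Among the 4 protein-coding genes on each side of Adrb3 in the RefSeq gene order (GRCm38.p6), Eif4ebp1, the translation inhibitor 4E-BP1 and the next gene after Adrb3, varied in a like order at a smaller scale. Its strain means were 5.31 in C3H, 4.97 in DBA, 4.76 in 129Ola, 4.60 in B6 and 4.27 in NZO, all measured in 4 of 4 mice, so B6 and 129Ola stood in the other order than for Adrb3. Eif4ebp1 was 0.55 ± 0.09 higher in C3H than in 129Ola (adjusted p = 0.000191), and over the 20 mice its level correlated with Adrb3 probe 1 at r = 0.83, as a description over mice that share strains. On the other side, Adgra2 and Brf2, measured in every mouse, had r = -0.15 and -0.21 and did not pass between C3H and 129Ola (-0.23 ± 0.17 and -0.06 ± 0.08). Rab11fip1 was measured in B6, NZO and 2 DBA mice, Got1l1 and Tex24 in none, Chrnb3 in 1 and Chrna6 in 5 mice.

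**Figure D5:**
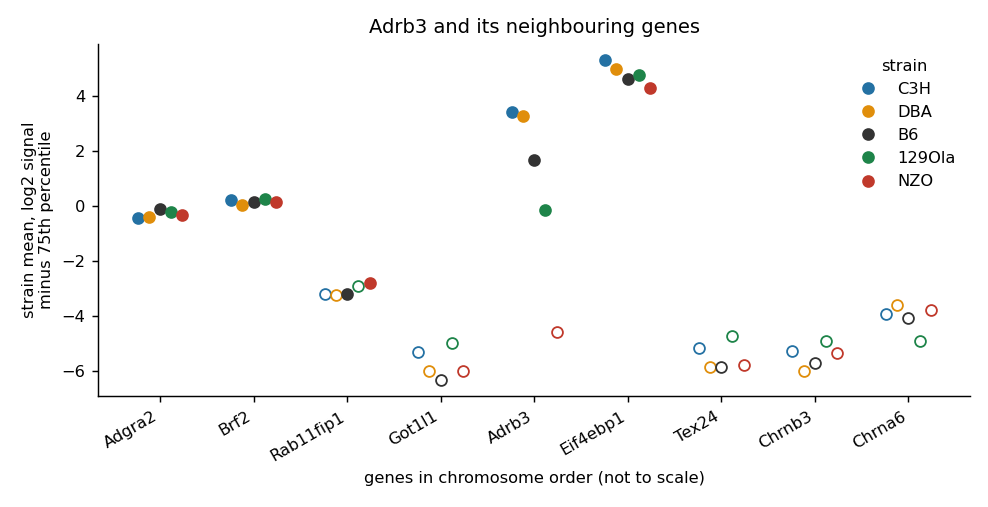
Strain means (log2 processed signal minus the array's 75th percentile, vertical axis) of Adrb3 probe 1 and the 4 protein-coding genes on each side, in gene order and not to scale. Filled points had 4 of 4 mice well above background, and strains are to be compared within a gene. Adrb3 spans -4.59 to 3.42 and Eif4ebp1 4.27 to 5.31, while Adgra2 and Brf2 stay within narrow bands.

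Over the 20 mice, the named genes whose levels followed Adrb3 probe 1 most closely, of 20472 named probes searched, were Ttc8, a subunit of the ciliary BBSome (r = 0.97), Ccdc122 (0.94), the mitochondrial transporter Abcb10 (0.94), the glutathione transferase Gstm6 (0.94) and Lrit1 (0.93). The r values describe 5 strain levels more than 20 separate mice. Ttc8 stood at -0.36 in DBA, -0.55 in B6, -0.66 in C3H, -2.33 in 129Ola and -5.04 in NZO, and Lrit1 at 2.10 in C3H, 1.69 in DBA, 1.62 in B6, -2.22 in 129Ola and -3.83 in NZO, with NZO and 129Ola lowest as for Adrb3 and with DBA and B6 closer together. By Spearman's rho 1 of the 5 was shared, Lrit1. No adipocyte member was among them. Among the genes closest to the adipocyte mean within strains were Rn28s1 (r = 0.84), Arhgdib (0.83), Fkbp1a (0.83) and Gusb (0.83), and DBA 5 was above the other DBA mice in each of these, as for the lysosomal enzyme Gusb at 0.88 against -0.41 to -0.15.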

How the data were processed

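Per the file headers, the authors' deposited intensity values come from Agilent Feature Extraction 11.0.1.1 (B6, NZO, DBA) and 11.5.1.1 (C3H, 129Ola). The submitters' processing notes name version 9.1, which the headers contradict. The processed signal is a background-subtracted, detrended intensity with no scaling between arrays, per the file headers, and the flag columns, score values of 0 or 1, are the authors' deposited ones. The authors' series value table (37892 probes, 7 of the 9 member probes) holds linear intensity values with identical sorted columns and a median of 19.9, each column correlating best with its own array (lowest rho 0.955). It runs in the direction of the scanner values, with its background correction and offset unknown.

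Controls (3671 of 62976 spots) and outlier spots (96 to 186 per array) were left out, no spot was saturated, and spots of a probe were averaged on the log2 scale. A probe of several spots was well above background where most of them were. Of 55681 probes 55642 were kept, and log2 values had each array's 75th percentile subtracted. RefSeq accessions named 28011 of 29780 probes through the GRCm38.p6 gene table, and the brightest probe stood for a gene of a list. No 2 arrays were identical (r 0.971 to 0.992 within strains).

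The fit, in limma 3.58.1 under R 4.3.3, held 1 mean for each strain and all 20 arrays (15 residual degrees of freedom, 17.2 with eBayes), two-sided, with Benjamini-Hochberg adjustment over the 28431 probes tested and a threshold of 0.05. The script was tested on simulated data. Correlations used 100000 permutations within strains. The number of arrays limits the precision.

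Named were every member probe, up to 4 list genes past the threshold with the largest differences per comparison, the 5 genes most like Adrb3 probe 1 and most like the adipocyte mean, and 4 neighbours on each side. Some genes that these rules pick are not reported here. Mrap, Npr3, Alb and the low or unmeasured markers were named after their values were seen. The members and lists were chosen with earlier results of these data known. Alternatives were normexp with an offset of 50, quantile and another percentile, the series value table, other filters and fewer strains. Others were blocks for slide, scan day and animal number, left-out mice and adipocyte covariates. The mean of 4 adipocyte genes as a covariate, the mice outside NZO and the count of further adipocyte genes were added after seeing the data.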

Additional observations from a re-analysis of the deposited data

Results flagged for a closer look

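Among 50 sets of 4 mice (9 member probes and the adipocyte mean in 5 strains), 2 held a mouse whose gap to the others was too large a share of the range by Dixon's test, where chance gives about 1 in 20. Retn probe 2 stood at -3.41 in DBA 5 and between -6.11 and -5.91 in the other DBA mice. The mean of the 6 adipocyte genes was -3.51 in 129Ola 9 and between -2.86 and -2.76 in the other 129Ola mice, in which Adipoq, Cfd, Plin1 and both Retn probes were also lowest in mouse 9 and Fabp4 highest. The mean of the 13 further adipocyte genes ran the other way, at -2.08 in 129Ola 9 and -2.52 to -2.31 in the others, with 9 of them well above background against 4 or 5.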

How the results depend on the processing

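Of 364 recomputed values, 333 kept their direction, call or size. Adrb3 in C3H against 129Ola stayed past the threshold in every setting run, from 2.72 to 3.79 for probe 1 and from 1.33 (normexp) to 4.47 for probe 2. Normexp gave 1.48 for Adrb3 probe 2 in DBA minus B6 and the authors' value table gave 1.62. The NZO values of Adrb3 that moved (normexp -2.62, -0.45, -4.03 and -1.93, value table -5.04 and -6.66) and the lost calls of Cfd (normexp 0.37, slide block 2.12) and Fabp4 (slide block 0.87) stand above. Cfd in NZO minus B6 turned to 0.042 with normexp. Fabp4 in NZO minus DBA passed with normexp (-0.63). The count of further adipocyte genes higher in C3H, 5 as reported, was 1 with normexp, 1 with probes measured on all arrays, and 2 with the slide block. The C3H minus 129Ola count of 10087 fell to 6691 with normexp, to 6592 in the value table (of fewer probes) and 3863 with the slide block, and the NZO minus DBA count of 4828 to 3158 with scan day as a block.

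Animal numbers shared between strains did not pair the mice (13 pairs, r -0.33 to 0.36, 2 of them over 0.1). With the replicate number as a block the counts were 1737 for DBA against B6 (4216 without), 2023 for C3H against 129Ola and 1723 for NZO against DBA, Cfd and Fabp4 in C3H minus 129Ola were 0.84 and 1.04 with no call, Cfd in NZO minus B6 was -1.42, and 0 further adipocyte genes were higher.

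Leaving out each mouse moved Cfd in C3H minus 129Ola between 1.78 and 2.62, Fabp4 in NZO minus DBA between -0.78 and -0.49, and the count of further adipocyte genes between 3 and 5. The causes were not tested. Signal over background limits every value near or below background, above all NZO for Adrb3, and Adipoq, Lep, Plin1 and Retn in nearly all mice.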
